A study of Mus musculus with 24 samples.

Results

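Dorsal root ganglia (DRGs) of *Nfil3* KO mice were compared with those of wildtype (WT) littermates at day 2 after a lesion of the sciatic nerve. The comparison holds the 4 samples titled KO at day 2 and the 4 titled WT at day 2, which are 8 of the 24 samples of the series. All were L4 and L5 DRGs of adult male C57BL/6J mice whose sciatic nerve had been cut and its ends rejoined, so KO and WT samples alike come from lesioned mice. KO mice were *Nfil3*-/-, from *Nfil3* lox mice crossed with a line that expresses Cre under a human CMV promoter, which removes the gene in every cell of the body and not in neurons alone. WT mice were *Nfil3*+/+. The other 16 samples, DRGs of the non-injured side (control) and DRGs at day 5 of both genotypes, entered the fit and serve here only for reference. The labels call the tissue DRG neurons, but the DRGs were taken whole. Neuronal markers such as Tubb3, Nefl and Uchl1 were bright in all 8 samples, and so were markers of Schwann cells, satellite glia, macrophages, fibroblasts and vessels.

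NFIL3 (also called E4BP4) is a basic leucine zipper transcription factor that mostly represses transcription. It binds the same DNA element as the activators DBP, TEF and HLF of the PAR bZIP family, and is known for its roles in the circadian clock and in the development of natural killer and other immune cells. Nerve injury induces it in DRG neurons, together with CREB and C/EBP family factors and with regeneration-associated genes such as Gap43, Arg1 and Sprr1a, whose products serve axon growth. The question asked at day 2 was whether these genes, or any others, are expressed at another level when NFIL3 is absent.

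Two-colour arrays with 60-base probes were used, with a different sample in each colour. The probes on which the main results rest all lie on the minus strand of chromosome 13 in build mm9, and the first 30 bases of each are shown because the probes of 1 gene did not behave alike. The Nfil3 probes lie at chr13:53062585-53062644 and chr13:53062869-53062928. The Auh probes lie at chr13:52930653-52930712, chr13:53003525-53003584 and chr13:53008226-53008285, in the order of the lines. The files give positions without naming an exon or UTR.
Nfil3 A_52_P500027: cgttatttttgctctattataaagtgtgta
Nfil3 A_51_P111492: aatagcaaacttatctgcagaggtggtctc
Auh A_51_P372473: caagccactgtgcgccatgtcatatttatt
Auh A_52_P4095: ggcagacaaagctcattctcttcccagact
Auh A_52_P107290: agttaagttgtgtgtatctagtgacgtagg

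Values are log2 intensities after normalization, so a difference of 1 is a factor of 2. A spot was taken as measured where the scanner software flagged it as well above background, which held for 61.1% to 70.2% of the probes in each of the 8 samples. No spot was saturated. Each group had 2 samples in Cy3 and 2 in Cy5. KO replicate 1 shared an array with WT replicate 3, and KO replicate 4 shared an array with WT replicate 2. The other 4 samples shared theirs with samples of other groups. The deviations of the 2 KO and WT pairs on 1 array from their group means correlated across probes at 0.409 and 0.586, and those of KO and WT samples on different arrays at -0.518 to 0.418. KO replicates 1 and 2 lay on the slide of WT replicates 3 and 4, KO replicate 4 on the slide of WT replicates 1 and 2, and KO replicate 3 on a slide without a WT day 2 sample. Nothing in the labels says that the 4 samples of a group came from separate animals, and the methods call them independent replicates.

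Nfil3 itself was the largest difference that passed the test. On its brighter probe (A_52_P500027) the KO samples measured 5.30, 4.14, 3.03 and 6.23 (replicates 1 to 4) and the WT samples 10.45, 10.76, 10.34 and 10.54. Every KO sample lay far below every WT sample. The difference was -5.85 (SE 0.81, 95% interval -7.54 to -4.16, n = 4 and 4, limma adjusted p = 0.00819). On the second probe (A_51_P111492) the KO samples measured 5.17, 4.12, 3.60 and 5.11 and the WT samples 9.64, 9.78, 9.42 and 9.76, a difference of -5.15 (SE 0.56, limma adjusted p = 5.51e-04). For each probe the exact two-sided permutation test over the 8 samples gave p = 0.0286, the smallest that 4 samples against 4 can give. Both probes exceeded background clearly in every WT sample, but in only 2 of the 4 KO samples, so the size of the loss is known less well than its direction.

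The 2 KO samples with Nfil3 signal above background were replicates 1 and 4, the 2 that shared an array with a WT day 2 sample. Their signal on probe A_52_P500027 was 3.03% and 4.31% of that of the WT sample in the other colour of the same array. KO replicates 2 and 3 shared arrays with KO samples and were not above background. Over all 12 KO samples of the series, Nfil3 was above background in 4 of the 6 whose array partner was WT and in 1 of the 6 whose partner was KO, on either probe. The 1 exception, at 7.59 and 6.70, was KO control replicate 4, whose labels disagree on the day. The part of the shared arrays in the residual KO signal was not tested.

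**Figure D1:**
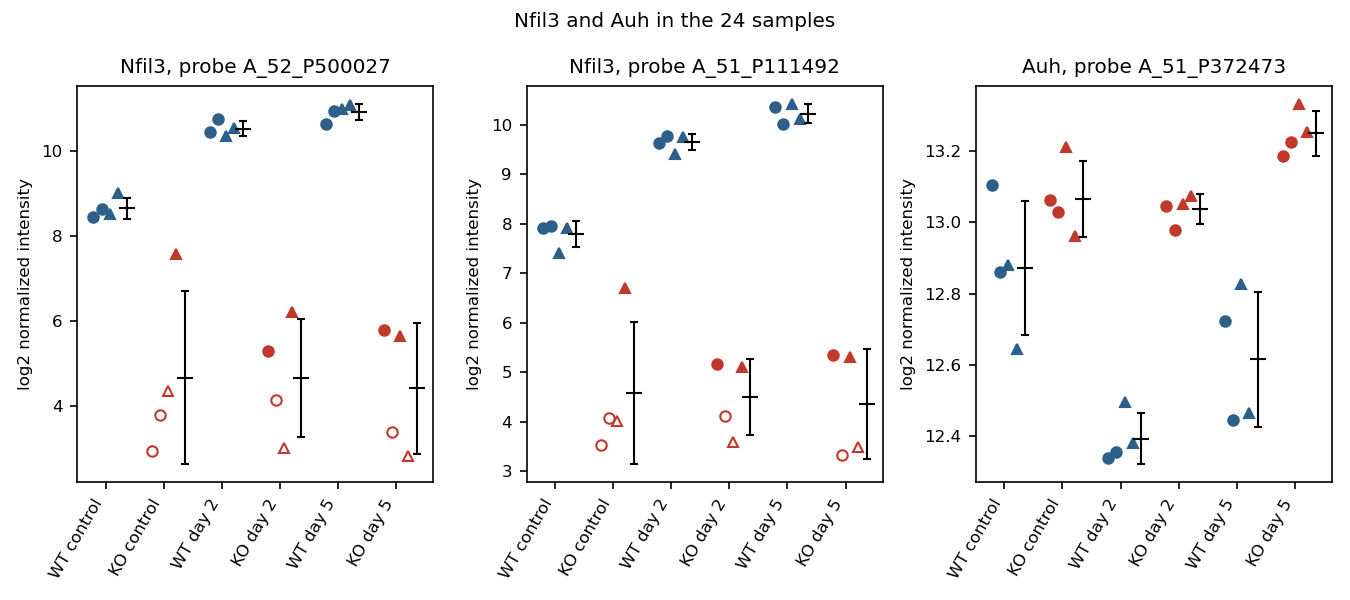
Log2 normalized intensity (y axis) of the 2 Nfil3 probes and the bright Auh probe in the 24 samples, by genotype and time (x axis, WT blue, KO red), with mean and SD in black. Circles are Cy3 and triangles Cy5, filled symbols well above background and open ones not. At day 2 the 4 KO samples lie at or below 6.23 for Nfil3 against 9.42 to 10.76 in WT, and for Auh all 4 lie above the WT samples.

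Nfil3 was a lesion gene in these WT DRGs. Its WT mean on probe A_52_P500027 went from 8.65 ± 0.25 (SD, n = 4) in control to 10.52 ± 0.18 at day 2 and 10.91 ± 0.19 at day 5. The day 2 response of WT was 1.87 on this probe (SE 0.81, limma adjusted p = 0.172) and 1.85 on A_51_P111492 (SE 0.56, limma adjusted p = 0.0385), so only the second passed. No KO response is given, because the KO control mean is set by replicate 4 (7.59 and 6.70, against 2.94 to 4.37 and 3.53 to 4.08 in the other 3) and the other 3 KO control samples were not above background. KO lay below WT by -3.98 and -3.22 in control DRGs with that sample included, and by -6.49 and -5.86 on day 5, in the same order of probes. The day 2 difference did not pass the test of being unlike that in control (limma adjusted p = 1.00 for both probes, unadjusted p = 0.118 and 0.0235), a test that includes the same KO control sample.

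Auh, which encodes the enzyme that hydrates methylglutaconyl-CoA in leucine breakdown and binds AU-rich RNA, was higher in KO on its bright probe (A_51_P372473). The KO samples measured 13.05, 12.98, 13.05 and 13.08, and the WT samples 12.34, 12.36, 12.50 and 12.38. The lowest KO sample lay above the highest WT sample. The difference was 0.65 (SE 0.10, 95% interval 0.44 to 0.85, limma adjusted p = 0.0238), a factor of 1.56, and the exact two-sided permutation p was 0.0286. Within the 2 arrays that carried both genotypes it was 0.55 and 0.72. The call rests on a narrow margin. With all samples but 1 it held without WT replicate 3 (adjusted p = 0.0442) and was lost when any of the other 7 was left out (adjusted p = 0.0601 to 0.0978), with the difference itself changing little.

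The KO mean of Auh hardly moved between control and day 2 (13.07 ± 0.11 and 13.04 ± 0.04, SD, n = 4 each), whereas the WT mean was 12.87 ± 0.19 in control and 12.39 ± 0.07 at day 2. The WT response to the lesion was -0.48 (limma adjusted p = 0.00291) and that of KO -0.03 (limma adjusted p = 0.910). Between genotypes, Auh differed by 0.19 in control DRGs and by 0.63 on day 5. The day 2 difference exceeded that in control by 0.45 (SE 0.14) at an unadjusted limma p of 0.00409, which did not pass after adjustment (adjusted p = 1.00), and it exceeded that at day 5 by 0.01. The other 2 Auh probes, A_52_P4095 and A_52_P107290, were dim but well above background in all 8 samples, and gave -0.13 (SE 0.67) and -0.44 (SE 0.22), neither past the test. They lie at -59.1 and -54.4 kb from the bright Nfil3 probe, and the bright Auh probe at -132 kb. Averaged over its 3 probes, Auh differed by 0.02 (limma adjusted p = 1.00), so the increase was measured on 1 of the 3 probes.

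Auh is the neighbour of Nfil3 on chromosome 13. Within 1 Mb of the Nfil3 probe the array had 16 probes for 11 gene names, of which the Nfil3 pair and the bright Auh probe were called. None of the other 13 passed even before adjustment, and 9 of the 16 were well above background in at least 6 of the 8 samples. Of the detected neighbours, Ror2, a receptor for Wnt5a, differed by 0.17 (SE 0.15), Sptlc1, a subunit of serine palmitoyltransferase, by 0.04 (SE 0.15), Syk, a tyrosine kinase of immune cells, by -0.31 (SE 0.25) and E130119H09Rik by 0.12 (SE 0.15). AK036223 (-0.91), Gm2762 (-0.55), C330026N13Rik (-0.05), Msx2 (0.14) and 4921525O09Rik (0.50) were well above background in none of the 8 samples, and those values carry little information. The targeted allele and the absence of the NFIL3 protein came together in every KO sample and cannot be told apart.

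Across the array, 5 of the 41174 probes passed an adjusted p of 0.05 (limma with Benjamini-Hochberg adjustment), or 0.0121%, for 4 gene names. Besides Nfil3 and Auh these were C130070B15Rik (KO 3.24, 3.35, 3.34 and 3.65, WT 0.70, 0.15, 1.15 and 1.39, adjusted p = 0.00819) and AK053534 (KO 1.89, 0.58, -0.34 and 1.46, WT 3.23, 3.70, 4.75 and 3.33, adjusted p = 0.0355). Neither was well above background in any of the 8 samples, so no fold change is given for them, and a filter on dim probes removes both by its rule. Before adjustment, 743 probes (1.8%) were higher and 834 (2.03%) lower in KO at p under 0.05. The KO samples all lay above the WT samples for 364 probes (0.884%) and all below for 297 (0.721%).

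The absence of calls can be read against the precision of the fit, whose spread was estimated over all 24 samples. Of the 25132 probes well above background in at least 6 of the 8, the median SE of the difference was 0.15, and the 95% interval lay within a 2-fold change in either direction for 24140 probes (96.1%) and within a 1.5-fold change for 79.1%. For 992 the interval reached a 2-fold difference. The intervals hold for single probes and are not adjusted for their number, so they do not exclude such a difference for every other probe. Over the main and alternative fits, the share within 2-fold ran from 89.3% to 98.9%. Over all 41174 probes 68.1% had an interval within 2-fold. Differences of at least 1 were measured on 43 of the detected probes. The median difference was 0.01 over detected probes.

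**Figure D2:**
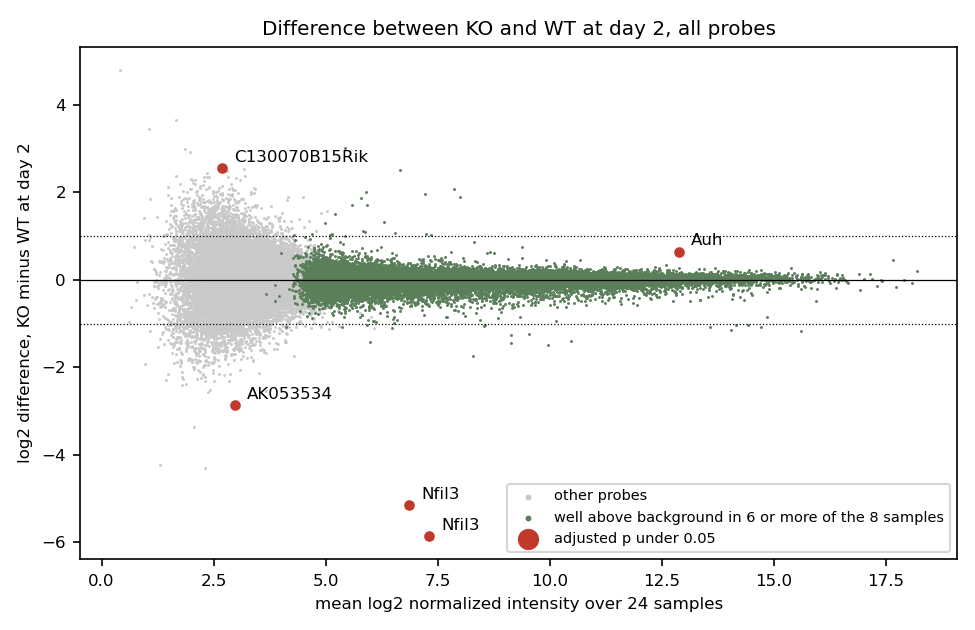
KO minus WT difference at day 2 (log2, y axis) against mean log2 intensity over 24 samples (x axis) for every probe, with probes well above background in at least 6 of the 8 samples in green, the others in grey, those with an adjusted p under 0.05 in red, and dotted lines at a 2-fold change. The 2 Nfil3 probes lie at -5.85 and -5.15 and the Auh probe at 0.65, while the 2 other calls lie among the dim probes.

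Whether genes responded differently at day 2 than at other times was tested directly. No probe passed for the KO minus WT difference at day 2 against that in control (smallest limma adjusted p = 0.319, with 1244 probes at an unadjusted p under 0.05) or against that at day 5 (smallest adjusted p = 0.645, with 1122). In the same fit the KO minus WT difference called 0 genes in control and 4 at day 5. Even Nfil3 was not called in control (-3.98, and -3.22 with limma adjusted p = 0.258 on A_51_P111492). So the 0 does not show that the genotypes were alike there. The control group and the test against it include KO control replicate 4, whose labels disagree on the day. The tests against control and against day 5 share the day 2 samples, so their counts are not independent of each other.

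**Figure D3:**
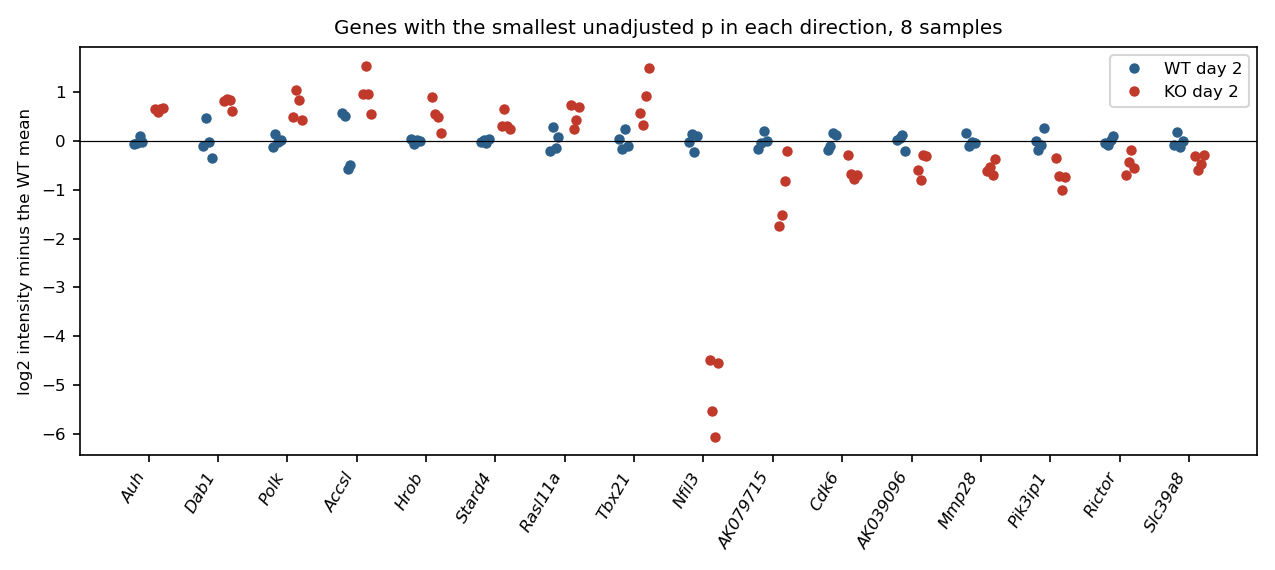
Log2 intensity of each day 2 sample minus the WT mean (y axis) for the 8 genes with the smallest unadjusted p in each direction (x axis) among probes well above background in at least 6 of the 8 samples, WT in blue and KO in red. Nfil3 and Auh passed adjustment, and for Accsl and Rasl11a the KO and WT samples overlap.

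Apart from Auh, the detected genes with the smallest p in the upward direction did not pass adjustment (limma adjusted p from 0.608 to 0.859), and their values are given as a description. Dab1, an adaptor of the reelin pathway, measured 4.98, 5.04, 5.01 and 4.78 in KO and 4.08, 4.63, 4.16 and 3.81 in WT (difference 0.78, SE 0.17). It was well above background in 4 of 4 KO but only 2 of 4 WT samples. Polk, a translesion DNA polymerase, measured 5.02, 5.56, 5.36 and 4.95 against 4.39, 4.66, 4.49 and 4.54 (0.71, SE 0.17). Hrob (BC030867 in the files), a factor of homologous recombination, differed by 0.53 (SE 0.13), and Stard4, a cholesterol carrier, by 0.38 (SE 0.10), each without overlap of the groups. Accsl (1.00, SE 0.24) and Rasl11a, a small GTPase (0.52, SE 0.14), overlapped.

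Tbx21 encodes T-bet, the factor of type 1 T cells and natural killer cells, which are a cell lineage that depends on NFIL3. It measured 5.78, 5.55, 6.14 and 6.70 in KO and 5.25, 5.05, 5.46 and 5.11 in WT (0.83, SE 0.22, limma adjusted p = 0.859). The KO samples all lay above the WT samples, but the difference did not pass adjustment. The other markers of these cells are given with the immune genes.

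In the downward direction the genes after Nfil3 did not pass adjustment either (adjusted p from 0.680 to 0.892). Cdk6, a kinase of the G1 phase, measured 5.35, 4.95, 4.86 and 4.94 in KO and 5.46, 5.54, 5.79 and 5.76 in WT (-0.61, SE 0.14). Pik3ip1, an inhibitor of PI3 kinase, measured 6.45, 6.08, 5.79 and 6.07 against 6.80, 6.61, 6.72 and 7.06 (-0.70, SE 0.18). Rictor, the defining subunit of mTOR complex 2, differed by -0.47 (SE 0.12), the matrix metalloproteinase gene Mmp28 by -0.56 (SE 0.14) and the zinc transporter gene Slc39a8 by -0.42 (SE 0.11). The transcripts AK079715 and AK039096 differed by -1.07 (SE 0.25) and -0.50 (SE 0.12). For all 7 of these the groups did not overlap, but AK079715 was well above background in only 2 of 4 KO samples (4 of 4 WT). Of the 25132 detected probes, 141 had all KO samples above all WT samples and 95 had all below. The genes of both directions were picked by their small p in these same samples, so their separation is no further support.

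The PAR bZIP activators, which share the DNA element of NFIL3, did not pass the test. Dbp measured 12.12, 11.63, 11.33 and 11.75 in KO and 12.12, 12.15, 12.87 and 11.79 in WT (-0.52, SE 0.29, unadjusted p = 0.0841). Tef differed by -0.17 (SE 0.10) and Hlf by -0.22 (SE 0.35). All 3 had the sign of Nfil3, and all 3 groups overlapped. Of 18 circadian clock genes, 16 were well above background in at least 4 of the 8 samples and none had an unadjusted p under 0.05. Their median difference was 0.01, beside 0.01 over the 17466 genes detected in the same way, of which 212 were higher and 221 lower at that threshold. Per2, a clock repressor and a target of NFIL3 in other cells, measured 5.33, 5.92, 5.61 and 5.63 in KO and 5.46, 5.76, 4.67 and 5.83 in WT (0.19, SE 0.22). Per1 differed by -0.09 (SE 0.18). Nr1d1, the repressor REV-ERB alpha, differed by -0.48 (SE 0.31) and the activator gene Arntl by 0.22 (SE 0.17). The labels used here give no hour of dissection.

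The CREB, ATF and C/EBP factors, activators that bind sites related to that of NFIL3, gave close values in both genotypes. All 13 were detected, their median difference was 0.00 (range -0.21 to 0.20), and none had an unadjusted p under 0.05. Creb1 measured 8.33, 8.54, 8.31 and 8.29 in KO and 8.17, 8.38, 8.30 and 8.21 in WT. Cebpd, at 12.11, 11.42, 11.48 and 12.44 against 11.82, 12.03, 12.32 and 11.53, responded to the lesion by 1.18 in WT and 1.32 in KO, and Crem by 1.48 and 1.55.

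Of 17 transcription factors known from injured neurons, all were detected, the median difference was 0.00 (range -0.31 to 0.29) and none had an unadjusted p under 0.05. Atf3, the classical injury marker, measured 13.76, 13.24, 12.94 and 14.10 in KO and 13.50, 13.83, 13.68 and 13.78 in WT. Its lesion response was 5.15 in WT and 5.10 in KO, and its difference at day 2 was -0.18 (SE 0.50). Jun responded by 1.72 and 1.64, Sox11 by 3.56 and 3.43 and Smad1 by 1.10 and 0.99. Myc was the only member whose KO samples (8.49 to 8.73) all lay above the WT samples (8.35 to 8.45), at a difference of 0.18 (SE 0.11, unadjusted p = 0.110).

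Regeneration-associated genes were the subject of the study. Of 25 listed, 24 were found on the array under the names searched (Lif was not) and 22 were detected. Their median difference was -0.07, with 2 higher and none lower at an unadjusted p under 0.05 and none past adjustment. Over all 27370 genes, each by its probe with the highest mean, 519 were higher and 525 lower at that threshold. The same reference holds for the counts in the other lists. Gap43, a growth cone protein, measured 11.01, 10.84, 10.66 and 11.36 in KO and 11.26, 11.44, 10.65 and 10.60 in WT, a difference of -0.02 with a 95% interval of -0.40 to 0.36. Arg1, an enzyme of polyamine synthesis, measured 6.00, 5.43, 4.64 and 5.45 against 5.16, 5.20, 4.79 and 5.39 (0.25, interval -0.30 to 0.79). Both intervals lie within a 2-fold change.

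Sprr1a, which promotes outgrowth of injured axons, measured 13.73, 13.44, 12.60 and 13.73 in KO and 13.75, 14.24, 13.21 and 13.48 in WT. The day 2 samples lay close together, but the shared estimate of spread for this gene was wide, and the interval of its difference (-0.30) ran from -2.61 to 2.02. The response to the lesion was 5.44 in WT and 5.69 in KO. Gal and Npy, neuropeptides of injured sensory neurons, responded by 3.73 and 3.74 and by 4.91 and 4.92, and Stmn4, Flrt3 and Gadd45a by 2.89 and 2.79, 3.56 and 3.46, and 3.13 and 3.26. Il6, an injury cytokine, was the detected member with p under 0.05, at 7.68, 6.98, 7.37 and 7.43 in KO and 6.65, 6.92, 7.22 and 6.71 in WT (0.49, SE 0.21, unadjusted p = 0.0302, adjusted p = 1.00). Its groups overlapped. The other was Vip, which was not above background in any sample.

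To ask the same of the whole lesion programme, genes were taken that differed between day 5 and control in both genotypes together (adjusted p under 0.05 and at least 2-fold). The contrast holds no day 2 sample, but these entered the normalization and the estimate of spread. The 902 probes higher at day 5 had a median KO minus WT difference of -0.07 at day 2, and 1 (Nfil3) passed adjustment. At an unadjusted p under 0.05, 9 were higher and 12 lower in KO, beside 1.8% and 2.03% of all probes. Of the 902, 739 were well above background in at least 6 of the 8 samples. Over all probes detected in that way the shares were lower, 0.931% and 1.14%. So these counts do not show that lesion genes differed less than other genes. The median lesion response of the 902 at day 2 was 1.17 for WT and 1.10 for KO. The 376 probes lower at day 5, 282 of them detected in that way, had a median difference of 0.13, with 6 higher and 4 lower. Of these 10, 7 were above background in no sample, among them all 4 that were lower. The median response of the 376 was -0.94 in WT and -0.83 in KO. These responses share the control samples with the choice of the genes, while the KO minus WT differences do not.

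The samples of each genotype were spread widely. The mean of the 902 probes was 7.43, 7.07, 6.97 and 7.43 in KO and 7.25, 7.43, 7.30 and 7.22 in WT, with KO replicates 1 and 4 and WT replicate 2 highest. The mean of the 376 probes was 6.52, 7.12, 7.41 and 6.54 in KO and 7.01, 6.53, 6.59 and 7.09 in WT. The samples on the 2 arrays shared by KO and WT were the 4 lowest for the second set. Compared within the slide of WT replicates 1 and 2, where KO replicate 4 was the only KO day 2 sample, both medians changed sign, to 0.12 and -0.31.

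Among the single lesion genes, Steap1, a metalloreductase, measured 9.64, 9.42, 9.33 and 9.44 in KO and 9.10, 9.29, 9.07 and 9.09 in WT (0.32, SE 0.10), and its lesion response was 1.92 in WT and 2.31 in KO. Star, a mitochondrial cholesterol carrier, responded by 3.87 and 3.48 (difference at day 2 -0.45, SE 0.19). Car1, a carbonic anhydrase, differed by -0.39 (SE 0.12). The macrophage genes Csf1r (-0.38, SE 0.15, on probe A_52_P602091) and Siglec1 (-0.56, SE 0.23) and the collagen gene Col5a3 (-0.56, SE 0.22) were lower in KO at an unadjusted p under 0.05. None of these passed adjustment. Csf1r stands in the macrophage list below on a brighter probe, and no member of that list had an unadjusted p under 0.05. Siglec1 was well above background in 1 of 4 KO and 4 of 4 WT samples.

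**Figure D4:**
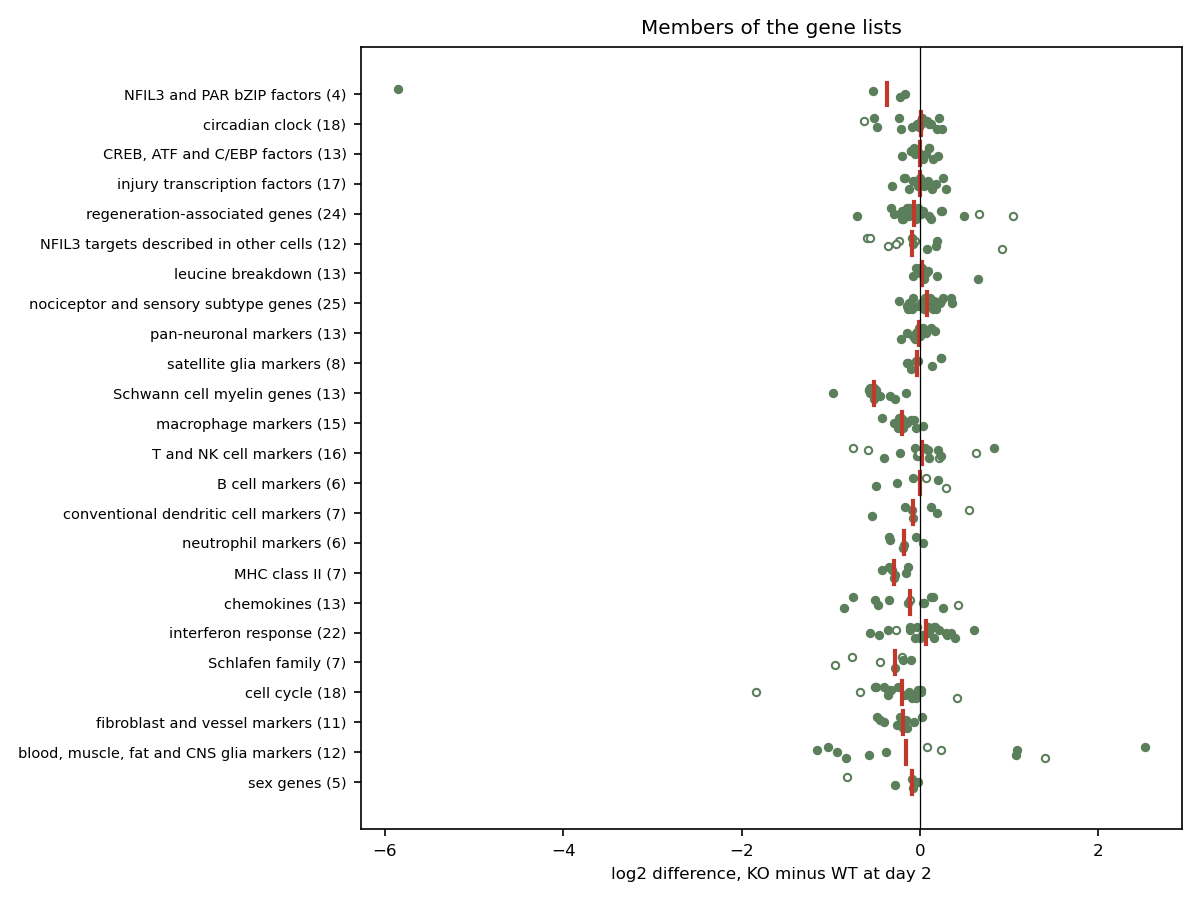
KO minus WT difference at day 2 (log2, x axis) of each gene in the 24 lists (y axis, number of genes beside the name). Filled points are genes well above background in at least 4 of the 8 samples, open points are the others, and red bars are list medians, which lie within 0.1 of 0 for clock, CREB and injury factors and at -0.52 for Schwann cell myelin genes.

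Genes of sensory neuron subtypes were detected for 25 of the 25 found (of 27 listed, Trpv1 and Mrgprd were not found under these names). Their median difference was 0.07 (17 positive, 8 negative, range -0.23 to 0.36) and none had an unadjusted p under 0.05. The lowest was Ntrk3, the receptor of neurotrophin-3, at -0.23 (SE 0.15). Trpa1, an irritant-gated channel of nociceptors, measured 7.32, 7.45, 8.21 and 7.28 in KO and 7.36, 6.80, 7.07 and 7.60 in WT (0.36, SE 0.21). The sodium channel gene Scn10a differed by 0.25 (SE 0.22) and the neuropeptide gene Nppb by 0.35 (SE 0.23). The 13 pan-neuronal markers had a median of -0.01 and the 8 satellite glia markers -0.03, none with p under 0.05. Tubb3, a neuronal tubulin, measured 15.89, 16.03, 15.85 and 15.98 against 16.04, 15.97, 15.81 and 15.79.

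Myelin genes of Schwann cells had lower means in KO, with a wide spread between the samples of each genotype. All 13 were detected and all 13 had a negative difference (median -0.52, range -0.98 to -0.16), 1 of them at an unadjusted p under 0.05. Pmp22, a structural protein of peripheral myelin, measured 16.29, 15.73, 15.64 and 16.31 in KO and 16.29, 16.65, 17.00 and 15.99 in WT (-0.49, SE 0.21, unadjusted p = 0.0297, adjusted p = 1.00). The widest range was that of Pmp2, a fatty acid binding protein, which went from 4.47 in KO replicate 2 to 9.12 in WT replicate 3.

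The mean over the 13 myelin genes was 11.61, 10.06, 10.13 and 11.21 in KO and 10.78, 11.45, 12.12 and 10.67 in WT. The 4 highest samples were KO replicates 1 and 4 and WT replicates 2 and 3, the 4 on the arrays shared by KO and WT, and the other 4 lay lower in either genotype. The list's median difference was -0.22 without WT replicate 3 and -0.82 without KO replicate 1, the extremes when each sample was left out in turn. It was -0.50 within the slide of WT replicates 3 and 4, and 0.06 within the slide of WT replicates 1 and 2. On the latter slide KO replicate 4 was the only KO day 2 sample. In whole ganglia, fewer cells of a type and less RNA per cell cannot be told apart.

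Macrophage markers showed the same pattern of samples. All 15 were detected, 14 had a negative difference (median -0.20) and none had an unadjusted p under 0.05. Their mean was 8.99, 8.21, 8.47 and 9.14 in KO and 8.76, 8.999, 9.19 and 8.60 in WT. Cd68 measured 7.44, 6.37, 6.95 and 7.29 against 7.22, 7.34, 7.59 and 6.83. The 11 fibroblast and vessel markers had a median of -0.19, 10 of them negative and none with p under 0.05, and the collagen genes Col1a1, Col1a2 and Col3a1 differed by -0.48 (SE 0.37), -0.45 (SE 0.26) and -0.41 (SE 0.28). Both medians differed in sign between the slides. They were -0.30 and -0.31 within the slide of WT replicates 3 and 4, and 0.22 and 0.21 within the slide of WT replicates 1 and 2. The latter slide held KO replicate 4 as its only KO day 2 sample. The part of nerve and connective tissue in these shifts was not tested.

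**Figure D5:**
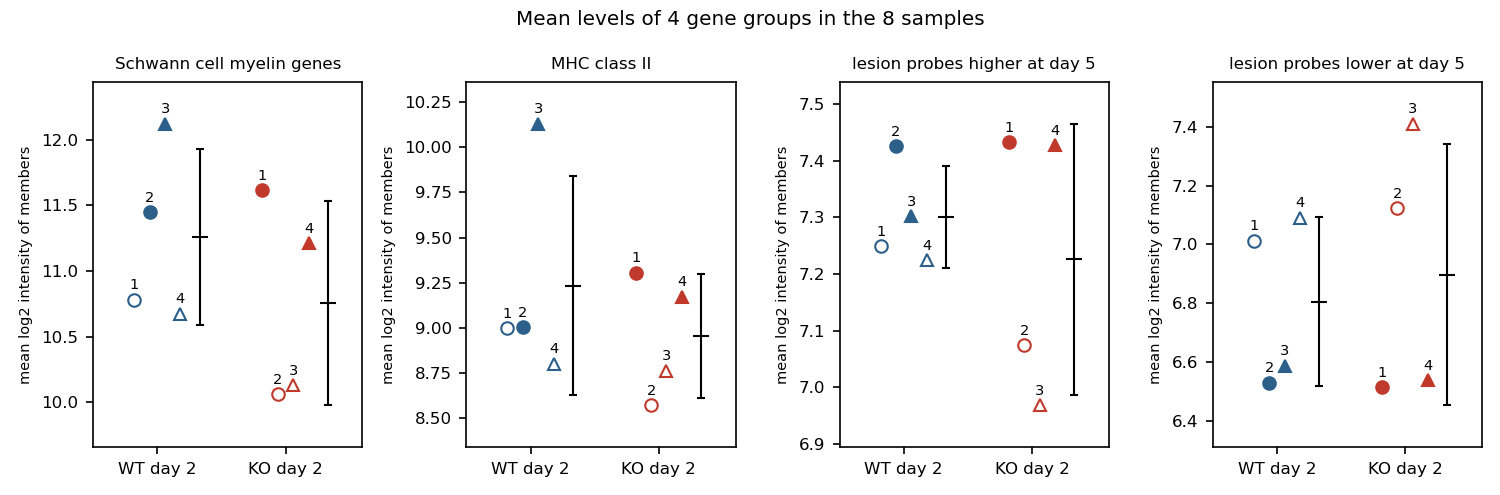
Mean log2 intensity over the members (y axis) of Schwann cell myelin genes, MHC class II genes and the lesion probes higher and lower at day 5 in each day 2 sample, WT blue and KO red, with replicate numbers and mean and SD in black. Circles are Cy3 and triangles Cy5, and filled symbols are the samples on the 2 arrays that carried both genotypes. Those are the 4 highest for myelin genes (11.21 to 12.12, against 10.06 to 10.78 for the other 4), and WT replicate 3 stands apart for MHC class II (10.13).

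Immune genes beyond macrophages gave no list with more than 1 member at p under 0.05. Of 16 T and NK cell markers 11 were detected, the median was 0.02 and Tbx21 was the only one with p under 0.05. Nkg7, a granule protein of cytotoxic cells, differed by -0.41 (SE 0.25), the interleukin receptor gene Il2rb by 0.20 (SE 0.18) and Klrd1 by -0.02 (SE 0.20). Ncr1 and Klrk1, receptors found on natural killer cells, were not above background in 7 and 8 of the 8 samples, and neither was Eomes in 7. Of 7 conventional dendritic cell markers, a lineage that depends on NFIL3 in other organs, 6 were detected at a median of -0.08. Batf3 measured 8.76, 7.97, 7.60 and 8.29 in KO and 7.61, 8.02, 8.33 and 7.92 in WT, and Irf8 differed by -0.54 (SE 0.26, unadjusted p = 0.0513). B cell markers (4 of 6 detected) had a median of -0.01 and neutrophil markers (6 found of 7 listed, Ly6g not found) -0.18, with S100a8 ranging from 10.68 to 13.72 in KO and 11.84 to 13.89 in WT.

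One WT sample stood apart for the genes induced by interferon gamma. Gbp2, a guanylate binding protein, measured 13.60 in WT replicate 3 against 9.29 to 9.68 in the other WT samples and 9.55 to 10.10 in KO. Gbp3 measured 11.91 there against 9.001 to 9.42 in the other 7 samples, and the chemokine gene Cxcl9 7.55 against 3.61 to 5.41. All 7 MHC class II genes had a negative difference (median -0.30), and the mean over them was 9.31, 8.57, 8.76 and 9.17 in KO and 8.997, 9.004, 10.13 and 8.80 in WT. The 22 interferon response genes (21 detected) had a median of 0.07, with 1 member, Mx2, whose KO samples (8.05 to 8.21) all lay above the WT samples (7.73 to 7.91), at 0.29 (SE 0.16). The mean over the 22 was 8.69, 8.60, 8.49 and 8.54 in KO and 8.21, 8.31, 9.34 and 8.28 in WT, so every KO sample lay above the WT samples other than replicate 3, and without WT replicate 3 the median of the list was 0.33. The 13 chemokine genes (10 detected) had a median of -0.12, with Cxcl10 at -0.76 (SE 0.37). No member of these 3 lists had an unadjusted p under 0.05.

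Cell cycle genes (15 of 18 detected) had a median of -0.21, with 15 negative. Plk1, a mitotic kinase, measured 6.37, 6.17, 6.45 and 6.60 in KO and 6.78, 6.49, 7.08 and 6.88 in WT (-0.41, SE 0.16, unadjusted p = 0.0230, adjusted p = 1.00), and Mki67 differed by -0.51 (SE 0.33) and Ccnb2 by -0.50 (SE 0.26). The median of the cell cycle list was -0.55 within the slide of WT replicates 3 and 4 and 0.04 within that of WT replicates 1 and 2. On the latter slide KO replicate 4 was the only KO day 2 sample. Plk1 gave -0.71 and -0.04 within these slides, and 0.11 within the array of KO replicate 4 and WT replicate 2. The only other member at p under 0.05, Aurkb, was above background in 1 sample.

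Blood and muscle genes moved between samples as well. The globin gene listed as Hbb-b1 (current symbol Hbb-bt) measured 14.54, 14.23, 16.66 and 15.49 in KO and 14.93, 16.93, 17.21 and 16.48 in WT (-1.16, SE 0.54, unadjusted p = 0.0437, adjusted p = 1.00). Hba-a1 differed by -1.03 (SE 0.55) and Alas2, the first enzyme of haem synthesis in red cells, by -0.93 (SE 0.54). Near-identical globin genes may share these probes. Myh4, a myosin of fast skeletal muscle, measured 10.41, 5.60, 5.09 and 11.81 in KO and 4.84, 6.77, 6.48 and 4.75 in WT, so that KO replicates 1 and 4 were far above the rest. The WT samples in the other colour of those 2 arrays, replicates 3 and 2, were the highest WT samples, at 6.57% and 3.05% of the KO signal. Acta1, Ckm and Mylpf were also highest in KO replicates 4 and 1, but for Ckm the highest WT sample was replicate 1 (4.23, against 3.98 and 3.43 in replicates 3 and 2), and for Mylpf replicates 3 and 2 were the lowest WT samples (5.25 and 5.26). Of the oligodendrocyte genes Mog and Mobp, 1 and 3 of the 8 samples were above background. Of the sex genes, Xist was above background in no sample and Ddx3y in all 8, as for the male mice of the labels.

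Genes described as NFIL3 targets in other cells were mostly not well above background here. Of 12, only 5 were detected and none had an unadjusted p under 0.05 (median -0.09). Il3 and Il10, cytokine genes, and Cyp7a1, the rate-limiting enzyme of bile acid synthesis, were above background in at most 1 sample. Id2, a regulator of lymphoid development, measured 9.39, 9.24, 9.75 and 8.99 in KO and 9.22, 9.13, 9.42 and 9.28 in WT (0.08, SE 0.13). Of 13 genes of leucine breakdown, all were detected with a median of 0.03, and Auh was the only one with p under 0.05. Mccc1, whose enzyme acts before that of Auh, differed by 0.00 (SE 0.08).

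Slfn5, of the Schlafen family, measured lower in KO on a dim probe (A_51_P413359), with 3.87, 3.04, 3.99 and 4.14 in KO and 4.79, 4.76, 4.88 and 4.96 in WT. The groups did not overlap, but the difference did not pass adjustment (limma adjusted p = 0.0792). The adjusted p ran from 0.0114 to 1.00 over the alternative fits and was under 0.05 in 6 of them (dye, dye and slide, loess, median foreground, replicate block, and without KO replicate 4). Background was clearly exceeded in 0 of 4 KO and 3 of 4 WT samples, and no fold is given. In KO it measured 4.77 ± 0.04 (SD, n = 4) in control and 5.09 ± 0.21 at day 5. The brighter Slfn5 probe (A_51_P364694) gave -0.28 (SE 0.24, unadjusted p = 0.249), with 6.98, 6.62, 6.95 and 7.43 against 6.90, 7.44, 7.94 and 6.81. All 7 Schlafen genes found had a negative difference (median -0.28), 3 were detected and none of their brightest probes had p under 0.05. Slfn10 was not found under this name.

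Promoters were searched for the NFIL3 element. RefSeq windows of 300 bases (250 before the start of a gene and 50 after it, GRCm38.p6) were searched for TTACGTAA and for TTATGTAA and its complement TTACATAA, which together cover both strands and do not overlap. They were found in 0.119%, 0.496% and 0.444% of the 32851 windows, and any of them in 1.06%, or 333 of 27025 genes. Of the 168 such genes on the array, 4 were higher and 3 lower in KO at an unadjusted p under 0.05 (4.17%, median difference 0.01), beside 2.92% of all 15783 genes with a window (median 0.02). Of the 98 detected in at least 6 of the 8 samples 1 had p under 0.05 (1.02%), beside 1.75% of 11478. No match lay in the windows of Nfil3, Auh or Slfn5. These are matches of letters and not binding sites.

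The 1 detected gene was Lrrtm3, a synaptic adhesion protein of neurons, which measured 7.42, 7.41, 7.39 and 7.25 in KO and 6.89, 7.03, 6.71 and 6.96 in WT (0.47, SE 0.16, unadjusted p = 0.00719). All KO samples lay above all WT samples, and the difference did not pass adjustment. Its lesion response was 0.45 in WT and 0.82 in KO. Per3, a clock gene with a pair of matches, differed by -0.24 (SE 0.19). Their matches are shown in capitals with 10 bases on each side, from chr10:64090289-64090316, chr4:151044853-151044880 and chr4:151044806-151044833, all on the minus strand, and begin 51, 205 and 158 bases before the start of the gene.
Lrrtm3: gggggcagctTTACATAAgactgcattc
Per3 (far): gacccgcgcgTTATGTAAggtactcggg
Per3 (near): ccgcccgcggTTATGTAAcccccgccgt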

How the data were processed

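The 8 day 2 samples (of 24 on 12 Agilent arrays, 3 slides) were grouped by title. The authors hybridized 2 samples per array and extracted scans with Agilent Feature Extraction. The deposited files hold, per spot and colour, foreground and background intensity without normalization, and flags. Their log ratio columns compare unrelated samples and were not used.

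As in the study's methods, intensities were background corrected (Edwards, mean foreground, median background) and quantile normalized over 24 channels, then set on a log2 scale here from the deposited values. Control spots and outlier spots were left out (7 missing values in the 8 samples, dropped from the fit), and spots of a probe averaged. The software was R 4.3.3 with the packages limma 3.58.1 and statmod 1.5.0. 1 mean per group was fitted to all 24 samples (18 residual degrees of freedom), and KO minus WT tested with p adjusted by Benjamini and Hochberg across 41174 probes (27398 gene names) at a threshold of 0.05. Intervals are at 95%. A probe counted as well above background where 50% or more of its spots were flagged so. "Detected" means this in at least 4 of the 8 samples for lists, and in 6 otherwise. A gene's probe with the highest mean stood for it in lists. Array precision is limited by the number of samples. The code was tested on simulated data.

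Named were Nfil3, Auh, Gap43, Arg1, Atf3, Sprr1a and Slfn5, all genes past adjustment, the 8 detected genes with the smallest p in each direction, detected list members at an unadjusted p under 0.05, and genes within 1 Mb of Nfil3. Other list and lesion genes were picked as examples after their values were seen. The members and lists were chosen with earlier results of these data known. Symbols came from a RefSeq table by accession (27479 probes) or name (6157), and otherwise from the files (7538). Alternatives are given in the closing section. Some list members are not reported here by name.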

Additional observations from a re-analysis of the deposited data

Results flagged for a closer look

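Of the 116 groups of 4 day 2 samples examined, 6 held a sample far from the other 3 by Dixon's test at 95%, and chance alone gives about 1 in 20. The mean over the MHC class II genes was 10.1 in WT replicate 3 against 8.80 to 9.004 in the other WT samples, and that over the interferon response genes was 9.34 in the same sample against 8.21 to 8.31. Stard4 on probe A_51_P105445 measured 6.96 in KO replicate 2 against 6.54 to 6.60 in the other KO samples, which raises its KO mean. The mean over the NFIL3 targets described in other cells was 5.42 in KO replicate 2 against 4.89 to 4.93, a list in which most probes were not well above background. The mean over the T and NK cell markers was 5.35 in KO replicate 4 against 5.61 to 5.64, and that over the leucine breakdown genes was 9.68 in WT replicate 4 against 9.81 to 9.82.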

How the results depend on the processing

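The results were recomputed under 24 alternative fits, 8 of which left out 1 sample, and within single arrays and slides. The 4 genes called for KO minus WT at day 2 became 2 with no background correction, normexp correction, a filter on dim probes or an intensity trend, and 1 with the Feature Extraction processed signals or the 8 day 2 samples alone. Leaving out each sample gave 1 to 6. With the replicate block 4 genes were called (Nfil3, Auh, C130070B15Rik and Slfn5). The deviations of KO and WT samples of the same number correlated at -0.518 to -0.0292. No such pair shared an array, and deviations from a group mean balance out within the group. These values therefore cannot tell whether the numbers pair the samples, and nothing in the labels says so. For KO minus WT at day 2 against the same difference in control, 0 genes became 1 without KO replicate 3 (0 to 1 over the samples) and 3 without the 2 arrays that carry both genotypes. The latter also gave 3 against day 5. The single gene was Itfg1, and the 3 were Ehf, AK052576 and NAP043014-1 in both tests. Itfg1 and Ehf were well above background in 0 of the 8 day 2 samples, and AK052576 and NAP043014-1 in 1 each. Causes were not tested.

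The Nfil3 difference at day 2 (bright probe) was -6.81 (adjusted p = 0.138) with the processed signals, -5.85 (0.0972) in the 8 samples alone, -6.91 (0.0756) without the shared arrays, -3.93 (5.95e-08) with normexp correction, -4.33 (2.96e-07) with no background correction, -4.53 within array 12, -4.38 within slide 3 and -6.36 to -5.30 without each sample. On this probe the call was lost without KO replicate 2 (-5.67, adjusted p = 0.0621) and WT replicate 1 (-5.87, 0.0566). The second Nfil3 probe had a limma adjusted p of at most 0.0297 in the fits by probe. As a gene, Nfil3 was called in all 25 fits, main and alternative. The Auh difference at day 2 was 0.608 (adjusted p = 0.288) with the processed signals, 0.645 (0.467) in the 8 samples alone, 0.0250 (1.00) averaged over probes and 0.656 (0.418) without the shared arrays. It was 0.719 within array 12, 0.550 within array 5, 0.574 within slide 2, 0.728 within slide 3 and 0.627 to 0.680 without each sample. With the replicate block its adjusted p was 0.0162, and with the array as a random block 0.00475. Auh was called in 14 of the 25 fits, main and alternative.

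The median of genes with an NFIL3 motif was 0.0750 with the processed signals, 0.0367 without the shared arrays, 0.0290 within array 12, -0.0142 within array 5, 0.0374 within slide 2, 0.0380 within slide 3 and -0.00893 to 0.0259 without each sample. The lesion genes at day 2, higher at day 5, had a median of 0.153 within array 5 and 0.123 within slide 3, and those lower at day 5 had -0.305 within slide 3.

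Signs turned for several single genes. Within array 12 Plk1 gave 0.109 and Syk 0.239, within array 5 Sprr1a gave 0.519, and within slide 3 Slfn5 (bright probe) gave 0.257. With the processed signals, Sptlc1 gave -0.0240, Gm2762 0.0601, C330026N13Rik 0.492 and AK036223 0.202. C330026N13Rik gave 0.0704 with no background correction, 0.0514 with the array as a random block and 0.0639 without the shared arrays. Without those arrays Arg1 gave -0.241, Gm2762 0.0114 and 4921525O09Rik -0.127, and 4921525O09Rik gave -0.00899 after loess. With the slide as a block, alone or with dye, Gap43 gave 0.0929 and Sptlc1 -0.0465, and with the array as a random block Gap43 gave 0.00444. E130119H09Rik gave -0.125 averaged over probes. Without each sample, Atf3 ranged from -0.381 to 0.00603, Gap43 from -0.149 to 0.132, Sptlc1 from -0.0428 to 0.0927, Gm2762 from -0.855 to 0.128, 4921525O09Rik from -0.226 to 0.783, Msx2 from -0.205 to 0.398 and C330026N13Rik from -0.758 to 0.624.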
